A study of Homo sapiens with 4 samples.

Results

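Keratins 8, 18 and 19, vimentin and the nuclear lamins are the 7 genes KRT8, KRT18, KRT19, VIM, LMNA, LMNB1 and LMNB2, taken by name from a table of 16174 genes. The table comes from H9 cells, an established human embryonic stem cell line kept in the primed state in mTeSR1 medium, whose poly(A) RNA was read as amplified full-length cDNA on a nanopore sequencer. All cells carried a doxycycline-inducible dCas9 fused to the KRAB repressor domain, introduced with a piggyBac transposase and selected with puromycin as a pool (no cloning step is described), and all were given doxycycline. The SNHG26 arm carried 4 pooled guides against the long non-coding RNA gene SNHG26, and the control arm carried non-targeting guides. Each arm has 2 libraries, 1 after 2 days and 1 after 3 days of doxycycline, so each arm's mean ± SD is taken over 2 libraries of different days (n = 2). The labels do not say whether the libraries came from separate cultures, so p-values measure only the spread between these libraries.

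Keratins and vimentin form the intermediate filaments of the cytoplasm. Simple epithelia make a type II keratin, keratin 8, that pairs with a type I keratin, keratin 18 or 19, since keratin filaments are built from heterodimers. Vimentin, a type III filament protein, assembles with itself and is the main filament of mesenchymal cells. Lamins are the type V filament proteins and form the meshwork under the inner nuclear membrane. B-type lamins are made in nearly all cells, whereas A-type lamins are low in pluripotent cells and rise on differentiation.

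The deposited values are gene levels in TPM. As inferred from the values themselves, these are reads divided by the genomic span of a transcript, introns included, and scaled to a common sum in each library. Short genes therefore stand higher against long ones. With every read of the listed genes on the full gene span, libraries held at most 947338 to 1220265 reads, and 10603 to 11162 genes had a value. The targeted gene SNHG26 was listed at 0 and 0.933 TPM in the SNHG26 arm (day 2, then day 3) and at 2.98 and 4.03 TPM in the control arm, the direction its label names. Stem cell markers (7 of 8 listed) were present in all libraries, with POU5F1 at 1050 to 1212 TPM and SOX2 at 241 to 307 TPM. DPPA4 had 210 and 183 TPM in the SNHG26 arm and 315 and 266 TPM in the control arm. Its arms did not overlap, as for 13.2% of all genes tested that were lower in this way. The limma adjusted p for DPPA4 was 0.935 (unadjusted 0.0395). Of the amnion and trophectoderm list, 4 of 12 genes were listed and their summed level ran from 0 to 2.03 TPM, with ISL1 and GABRP at 0 in all 4 libraries. Of the mesoderm and endoderm list, 3 of 8 were listed, summing to at most 1.98 TPM, with FOXA2 and EOMES at 0. Fibroblast genes (5 of 8 listed) summed to 11.0 and 9.53 TPM in the SNHG26 arm and to 15.7 and 12.3 TPM in the control arm, with COL1A2 and COL1A1 the highest by mean and PDGFRA next. Of the neural ectoderm list, 2 of 6 were listed, and TUBB3 (41.5 to 56.2 TPM) made up nearly all of the sum.

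VIM and LMNB2 are shown by sequence because all recovered reads of LMNB2, and all but 2 of VIM, were placed on a span that begins at a RefSeq start site. The window runs from 250 bases before to 50 bases after that site, 5′ to 3′ on the gene's strand, from RefSeq promoters on GRCh38.p14. VIM lies at chr10:17227991-17228290 on the plus strand and LMNB2 at chr19:2456910-2457209 on the minus strand. Capitals mark matches, on either strand, to GGGCGG (a GC box), to the TATA motif TATAAA, to the CCAAT box, or to the AP-1 motif TGANTCA.
VIM: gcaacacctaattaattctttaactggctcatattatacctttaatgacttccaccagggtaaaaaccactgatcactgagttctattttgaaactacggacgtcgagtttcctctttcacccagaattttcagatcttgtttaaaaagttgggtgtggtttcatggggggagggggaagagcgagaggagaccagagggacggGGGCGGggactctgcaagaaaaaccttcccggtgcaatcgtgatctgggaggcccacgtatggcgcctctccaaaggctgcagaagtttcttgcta
LMNB2: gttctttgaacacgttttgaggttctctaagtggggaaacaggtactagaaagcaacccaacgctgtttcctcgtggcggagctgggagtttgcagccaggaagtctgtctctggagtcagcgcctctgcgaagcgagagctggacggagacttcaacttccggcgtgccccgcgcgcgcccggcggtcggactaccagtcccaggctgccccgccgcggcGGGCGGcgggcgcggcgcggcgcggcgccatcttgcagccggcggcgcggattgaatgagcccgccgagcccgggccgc
The VIM window held 1 GC box and a GC content of 48.0%, and the LMNB2 window held 1 GC box and a GC content of 67.7%. The median over 35116 RefSeq promoter windows was 58.7%, and 45.0% of them held a GC box, 11.5% the TATA motif, 34.6% a CCAAT box and 7.71% the AP-1 motif. Neither window held the other 3 motifs, each motif was counted on its own whatever overlapped it, and a match is a description only. RefSeq windows were found for 5 of the 7 genes, all but KRT18 and KRT19.

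The simple keratins were by far the most abundant of the 7, vimentin and lamin B2 stood near 10 TPM or below, and lamins B1 and A near the bottom. By TPM per span the order was KRT18, KRT19, KRT8, LMNB2, VIM, LMNB1 and LMNA. The steps from KRT18 to KRT19, to KRT8 and to LMNB2 held in 4 of 4 libraries with ranges that did not overlap. LMNB1 stood above LMNA in 3 of 4 libraries, so these neighbours did not differ beyond their spread. LMNB2 stood above VIM in 3 of 4, with ranges that overlapped. The exception, the day 3 SNHG26 library (9.01 TPM for VIM, 7.94 for LMNB2), includes 1 VIM read on a short span, described below. With each VIM read on the full span, chosen after seeing the data, VIM ran from 2.87 to 7.02 TPM. LMNB2, at 7.94 to 12.9 TPM, was then higher in each library. VIM stood above LMNB1 within each of the 4 libraries, although their ranges overlapped. Together the 3 keratins took 0.119% to 0.155% of the listed TPM, and the 3 lamins summed to 12.0 to 16.2 TPM.

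**Figure D1:**
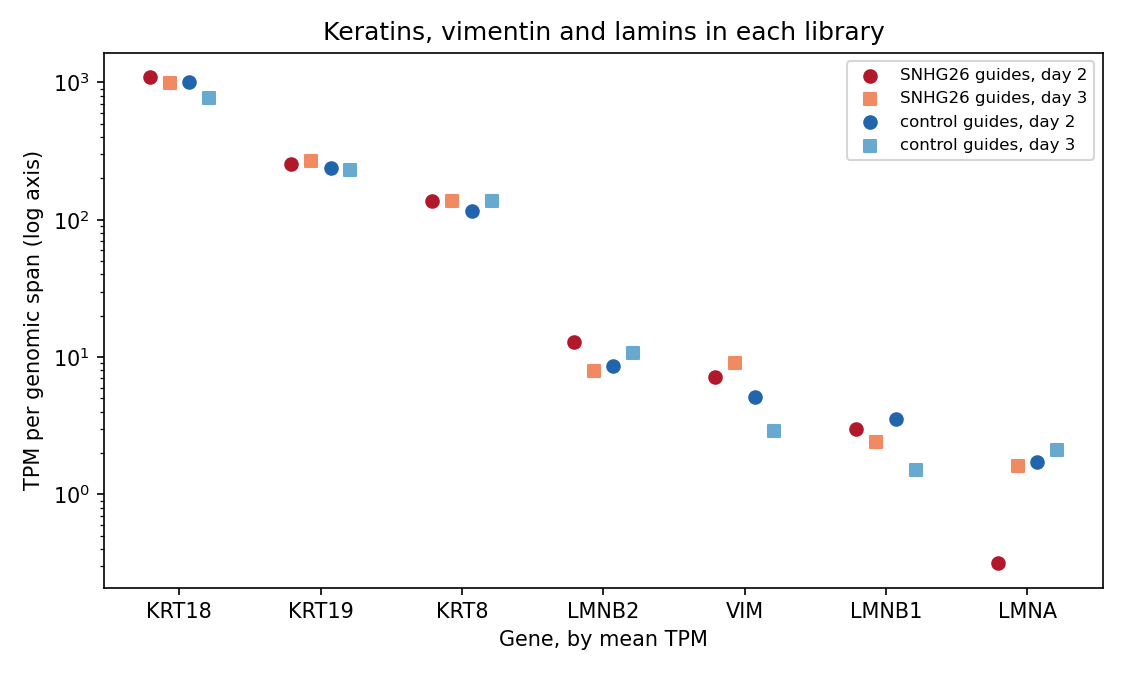
TPM per genomic span (log axis) of each of the 7 genes, ordered by mean. Each point is 1 library, coloured by guide arm and shaped by day. The keratins lie between 115 and 1091 TPM, and LMNA falls to 0.315 TPM in 1 library.

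KRT18 (chromosome 12, 52948871 to 52952906, plus strand), the type I partner of keratin 8, was the highest. It had 1091 and 986 TPM with the SNHG26 guides on day 2 and day 3, and 1006 and 770 TPM with the control guides. Only the day 3 control library stood clearly lower, and the arms overlapped. The means were 1038 ± 73.8 and 888 ± 167 TPM (SD, n = 2). On log2(TPM + 1) the difference was 0.24 (SE 0.18), with a limma adjusted p of 0.935 over 8274 genes, and it ran from 0.0437 to 0.43 as single libraries were left out, lowest without the day 3 control library.

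KRT8 (chromosome 12, 52897187 to 52949954, minus strand), the type II keratin of simple epithelia, had 137 and 138 TPM with the SNHG26 guides and 115 and 137 TPM with the control guides. The day 2 control library was low and the other 3 were nearly equal. Means were 137.6 ± 0.536 and 126.0 ± 15.0 TPM (SD, n = 2), a difference of 0.13 (SE 0.19) on log2(TPM + 1) with a limma adjusted p of 0.976. It was 0.0102 without the day 2 control library and 0.25 without the day 3 control library. As listed, KRT8 overlaps KRT18 on the opposite strand by 1084 bases, and whether counting used strand is not given in the sources used here, so reads in the overlap are uncertain for both genes.

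KRT19 (chromosome 17, 41523617 to 41528308, minus strand), the smallest keratin, lacks the usual tail domain. It had 256 and 269 TPM with the SNHG26 guides and 238 and 229 TPM with the control guides. The lower SNHG26 library lay above the higher control library by a small margin. Means were 262.5 ± 8.69 and 233.5 ± 6.33 TPM (SD, n = 2), with a difference of 0.17 (SE 0.16) and a limma adjusted p of 0.938. KRT19 varied least of the 7, by 1.17-fold between its lowest and highest library.

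The reads behind the keratins are known to different degrees. KRT19 came out as whole reads on its full span of 4692 bases: 165 and 193 reads with the SNHG26 guides and 139 and 160 with the control guides. Their exact Poisson intervals (95%), which cover counting error only, ran from 141 to 192 reads, 167 to 222, 117 to 164 and 136 to 187. Those of the day 3 SNHG26 and day 2 control libraries did not overlap, and all other pairs did. These reads are not scaled for library depth, so the intervals do not compare levels. For KRT18, the full span and the shortest coding span of GENCODE release 29 (3927 bases) bracket the reads at 587 to 603 and 593 to 609 with the SNHG26 guides, and at 492 to 505 and 450 to 462 with the control guides, if all lay on coding transcripts. KRT8 is less certain, because its transcripts range from the whole gene to a span of 9425 bases (52897194 to 52906618) with the same number of exons, 9. On the full span its values allow at most 993 and 1114 reads with the SNHG26 guides and 758 and 1073 with the control guides. If every read lay on the 9425-base transcript, the same values would equal 177 and 199 reads, and 135 and 192. Whether KRT8 or KRT18 had more reads is therefore not settled by these values, although KRT8 stood far below KRT18 in TPM.

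Since keratins 8 and 18 pair, their ratio was taken within each library, where scaling cancels. KRT8 to KRT18 was 0.126 and 0.140 with the SNHG26 guides and 0.115 and 0.177 with the control guides. KRT19 to KRT18 was 0.235 and 0.272 against 0.237 and 0.297. In both arms each ratio was higher on day 3 than on day 2, a difference that was not tested. Both ratios have KRT18, itself lower on day 3 in both arms, as divisor. The arms overlapped for both ratios. Exact two-sided permutation tests gave p = 1 and p = 0.667 (adjusted p = 1 for both over 5 ratios), where 2 libraries against 2 allow no p below 0.333.

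VIM (chromosome 10, 17228241 to 17237593, plus strand), the vimentin gene, was low in these cells. It had 7.20 and 9.01 TPM with the SNHG26 guides and 5.15 and 2.87 TPM with the control guides. The lowest SNHG26 library lay above the highest control library. The means, 8.10 ± 1.28 and 4.01 ± 1.61 TPM (SD, n = 2), stood 2.02-fold apart. On log2(TPM + 1) the difference was 0.41 for the day 2 pair and 1.37 for the day 3 pair, and averaged 0.89 (SE 0.40). On this scale it was the largest difference of the 7, but with a pseudocount of 0.1 LMNA's was larger in size (-1.25, against 1.04 for VIM). The limma adjusted p was 0.935 (unadjusted 0.0861), and VIM ranked 534 of 8274 genes by unadjusted p, so it did not pass.

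Few reads lie behind VIM, and they can be counted. In the control libraries the values equal 6 and 4 reads on the full span of 9353 bases. In the day 2 SNHG26 library the value equals 8 reads on that span and 1 read on 7590 bases, which is the span of an annotated transcript (17230004 to 17237593) subject to nonsense-mediated decay. In the day 3 SNHG26 library it equals 6 reads on the full span and 1 read on 1356 bases, the span of a short 2-exon transcript (17228515 to 17229870). These were the only solutions within 1e-06 read over up to 3 kinds of span. The single read on 1356 bases was worth 4.82 TPM, against 0.698 TPM for a read on the full span in the same library. The reads were thus 9 and 7 with the SNHG26 guides and 6 and 4 with the control guides, with Poisson intervals (95%) of 4.12 to 17.1, 2.81 to 14.4, 2.20 to 13.1 and 1.09 to 10.2. With each read placed on the full span, an alternative chosen after seeing the data, VIM had 7.02 and 4.89 TPM against 5.15 and 2.87 TPM. The arms then overlapped, and the difference was 0.49 (limma adjusted p 0.935), smaller in size than that of LMNA (-0.65).

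**Figure D2:**
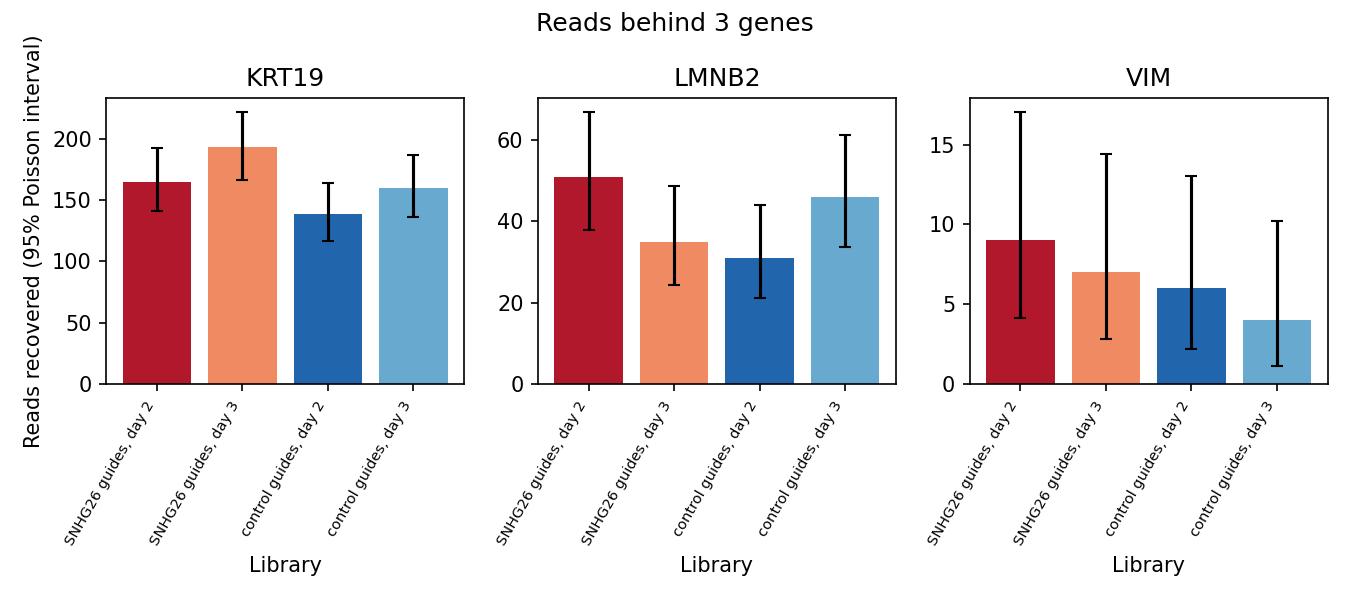
Reads recovered from the TPM values of KRT19, LMNB2 and VIM in each library. Bars start at 0 and error bars are exact 95% Poisson intervals, which cover counting error only. VIM rests on 4 to 9 reads per library and its intervals overlap.

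Relative to the sum of KRT8 and KRT18, VIM stood at 0.00586 and 0.00801 with the SNHG26 guides and 0.0046 and 0.00317 with the control guides. This was the only one of the 5 ratios whose arms did not overlap. The exact permutation test, two-sided, gave 0.333 as p, the floor for 2 libraries against 2 (adjusted p = 1). The ratio carries the same short-span read as the VIM value itself. With each VIM read on the full span, chosen after seeing the data, the arms of this ratio overlapped as well.

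LMNA (chromosome 1, 156082572 to 156140081, plus strand) encodes lamins A and C. It had 0.315 and 1.60 TPM with the SNHG26 guides and 1.73 and 2.09 TPM with the control guides. The day 2 SNHG26 library stood far below the other 3, which lay close together. Means were 0.957 ± 0.909 and 1.91 ± 0.258 TPM (SD, n = 2), with a difference of -0.65 (SE 0.60) on log2(TPM + 1) and a limma adjusted p of 0.937. On the full span of 57510 bases the values allow at most 2 and 14 reads with the SNHG26 guides, and 12 and 17 with the control guides. With a pseudocount of 0.1 the difference was -1.25, and with 5 it was -0.22. Without the day 2 SNHG26 library it was -0.16, so most of it rests on a library with at most 2 reads.

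LMNB1 (chromosome 5, 126776623 to 126837020, plus strand), which encodes lamin B1, had 3.00 and 2.42 TPM with the SNHG26 guides and 3.51 and 1.51 TPM with the control guides. Both arms were lower on day 3, and the arms overlapped. The difference was 0.14 (SE 0.49), with a limma adjusted p of 0.998, and it became -0.29 without the day 3 control library. At most 24 and 22 reads lie behind the SNHG26 values and 26 and 13 behind the control values.

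LMNB2 (chromosome 19, 2427638 to 2456959, minus strand) encodes lamin B2 and was the most abundant lamin by TPM. It had 12.9 and 7.94 TPM with the SNHG26 guides and 8.65 and 10.7 TPM with the control guides. The SNHG26 library was the higher of the arms on day 2 and the lower on day 3. Its values equal 51 and 35 reads with the SNHG26 guides and 31 and 46 with the control guides, all on a span of 28794 bases (2428166 to 2456959). The difference between the arms was 0.53 for the day 2 pair and -0.39 for the day 3 pair, averaging 0.07 (SE 0.37) with a limma adjusted p of 0.998. The sign turned to -0.25 without the day 2 SNHG26 library and to -0.0728 without the day 2 control library.

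Lamin proportions varied widely between libraries. LMNB1 to LMNA was 9.51 and 1.51 with the SNHG26 guides and 2.04 and 0.721 with the control guides, and LMNB2 to LMNB1 was 4.31 and 3.28 against 2.46 and 7.12. The value of 9.51 has the LMNA value with at most 2 reads as its divisor. The arms overlapped for both, with exact two-sided permutation p-values of 0.667 and 1 (adjusted p = 1 for both).

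Between the guide arms, 0 of the 7 genes passed a limma adjusted p of 0.05 and 0 had an unadjusted p under 0.05. Across the 8274 genes tested, whose mean over the libraries reached 1 TPM, 0 (0%) passed and 337 (4.07%) had an unadjusted p under 0.05. The arms did not overlap for KRT8, KRT19 and VIM, which were higher with the SNHG26 guides, and for LMNA, which was lower. Among all genes tested, 16.1% were higher and 13.2% lower in this way. With each VIM read on the full span, the arms of VIM overlapped. The median difference of the 7 was 0.14, and that of all genes tested was 0.0414. Among genes averaging at least 50 TPM, where the keratins stand, the median was 0.106. In bulk RNA, fewer cells making a transcript and less RNA per cell cannot be told apart.

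**Figure D3:**
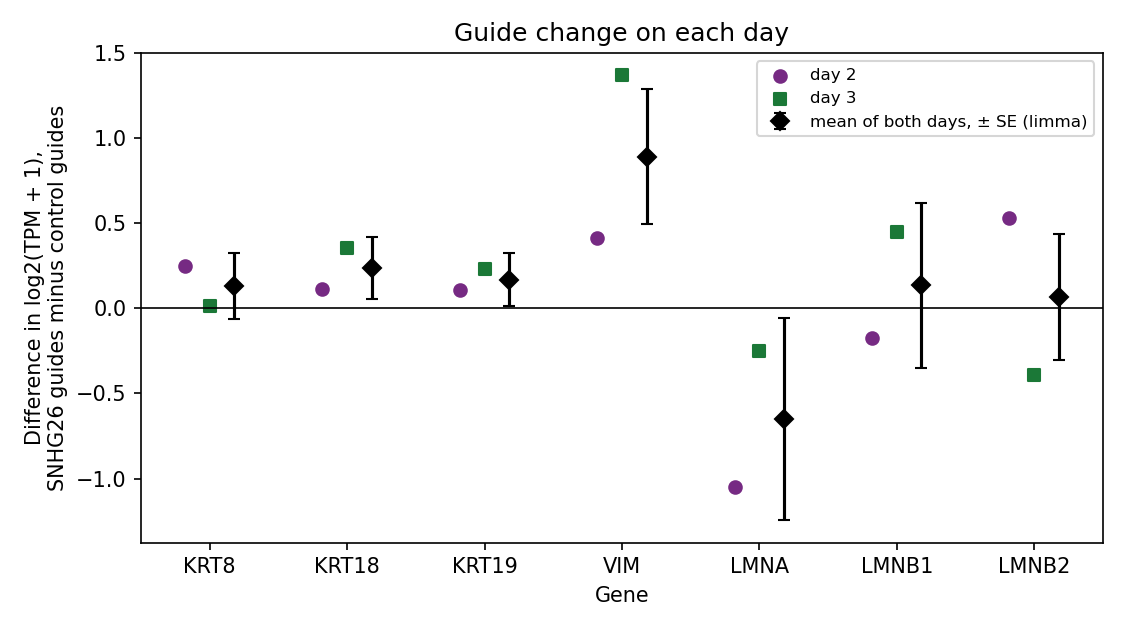
Difference in log2(TPM + 1) between the SNHG26 and control guides for each gene, on day 2, on day 3 and as the mean of both days with the limma SE (2 libraries per arm). VIM has the highest mean (0.89) and LMNA the lowest (-0.65), and LMNB1 and LMNB2 have opposite signs on the 2 days.

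A test of whether days 2 and 3 differed in their guide change took the day 3 change minus the day 2 change. With 1 library per arm and day no spread is left for it, so limma took the arm and day effects themselves as error, and its SE and p-values carry them. The difference was largest for VIM, at 0.96 (SE 1.09), and for LMNB2, at -0.92 (SE 0.59), with limma adjusted p-values of 0.985 and 0.961. For VIM it includes the short-span read of the day 3 SNHG26 library, worth 4.82 TPM. With each VIM read on the full span, chosen after seeing the data, VIM had 7.02 and 4.89 TPM against 5.15 and 2.87 TPM. The difference for VIM was then smaller in size than that for LMNB2, so its place as largest rests on 1 read. This comparison was not rerun in limma with those values. Of the 7 genes 0 passed and 0 had an unadjusted p under 0.05, against 8 of 8274 genes (0.0967%) past the threshold and 291 (3.52%) at an unadjusted p under 0.05.

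Between day 2 and day 3 of doxycycline, 0 of the 7 passed, with limma adjusted p-values of at least 0.760, and 0 had an unadjusted p under 0.05. Among all genes tested, 3 (0.0363%) passed and 547 (6.61%) had an unadjusted p under 0.05. LMNB1 and KRT18 were lower in both day 3 libraries than in both day 2 libraries, by -0.54 (SE 0.38) and -0.26 (SE 0.17) on log2(TPM + 1), and 18.4% of all genes tested were lower in this way. Without the day 3 control library these differences were -0.31 for LMNB1 and -0.0869 for KRT18, and without the day 3 SNHG26 library -0.76 and -0.44. VIM overlapped between the days as listed (-0.19). With each VIM read on the full span, chosen after seeing the data, VIM too was lower in both day 3 libraries. Its difference was then -0.56, with a limma adjusted p of 0.760. None of the 7 was higher in both day 3 libraries, against 17.1% of all genes tested. KRT19 differed least between the days, by 0.00611 (SE 0.16).

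Of the other filament and lamina genes on the lists, none passed the limma threshold between the arms or between the days. Among simple keratins, KRT7, a keratin of ducts and of trophoblast, was listed at 0 and 0.417 TPM with the SNHG26 guides and at 0 and 1.29 TPM with the control guides, below the filter. Of 21 epidermal and hair keratins 4 were listed and 2 tested. KRT10, a type I keratin known from the upper epidermis, had 19.4 and 29.04 TPM with the SNHG26 guides and 8.93 and 10.5 TPM with the control guides. These equal 12 and 20 reads against 5 and 7, and the arms did not overlap. Its difference of 1.22 (SE 0.33) had a limma adjusted p of 0.935 (unadjusted 0.0207). With limma's voom on 392 genes with whole reads, chosen after seeing the data, it was 1.17 (SE 0.61; limma adjusted p 0.986). KRT10 overlaps KRT10-AS1 on the opposite strand by 3544 bases, so its reads are uncertain there. KRT17, the other gene tested, rested on at most 1 read in any library.

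Of 11 other cytoplasmic filament genes 9 were listed and 3 were tested. Between the arms 0 passed, with 1 at an unadjusted p under 0.05. NES, which encodes nestin, the filament protein of neural progenitors, had 24.5 and 21.2 TPM with the SNHG26 guides and 23.2 and 17.1 TPM with the control guides, on 29, 28, 25 and 22 reads. Its difference was 0.18 (SE 0.30), with a limma adjusted p of 0.987. NEFL, which encodes the light neurofilament chain, had 1.29 and 2.31 TPM with the SNHG26 guides and 7.10 and 16.4 TPM with the control guides. These values allow at most 1 and 2 reads against 5 and 14. The SNHG26 libraries were both below the control libraries, with a difference of -2.11 (SE 0.53) and a limma adjusted p of 0.869 (unadjusted 0.0154).

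Linkers tie filaments to desmosomes and to each other. Of the 17 linker and desmosome genes, 7 were tested. Between the arms 0 passed, with 0 at an unadjusted p under 0.05 and a median difference of 0.44. The highest mean over the 4 libraries was that of PKP2 (plakophilin 2, a desmosomal plaque protein), at 6.82 and 2.38 TPM with the SNHG26 guides and 4.78 and 4.06 TPM with the control guides. JUP (plakoglobin, of desmosomes and adherens junctions) had 6.21 and 4.07 against 2.75 and 3.57 TPM, with a difference of 0.55 (SE 0.39) and a limma adjusted p of 0.935.

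Lamins bind inner nuclear membrane proteins and chromatin linkers. Of 17 such partners, 9 were tested. Between the arms 0 passed, with 0 at an unadjusted p under 0.05 and a median difference of 0.14. BANF1, a small DNA-binding protein that bridges chromatin and the lamina, had 1303 and 1388 TPM with the SNHG26 guides and 1053 and 1141 TPM with the control guides. Its arms did not overlap, and the difference of 0.29 (SE 0.12) had a limma adjusted p of 0.935 (unadjusted 0.0613). EMD, which encodes emerin, had 184 and 205 TPM against 202 and 154 TPM. Among the 5 enzymes that farnesylate and trim prelamin, 4 were tested. Between the arms 0 passed, with 0 at an unadjusted p under 0.05. ICMT, the carboxyl methyltransferase, had 24.1 and 15.4 against 24.3 and 15.8 TPM, lower on day 3 in both arms. Between the days its limma adjusted p was 0.746 (unadjusted 0.0486). FNTA, a farnesyltransferase subunit, had 4.46 and 6.95 against 5.24 and 5.57 TPM.

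Genes of the switch between epithelial and mesenchymal states were set beside VIM. Of 14, 7 were tested and 0 passed between the arms, with 0 at an unadjusted p under 0.05 and a median difference of 0.15. CLDN7, a tight junction claudin, had 172 and 161 TPM with the SNHG26 guides and 155 and 124 TPM with the control guides, so its arms did not overlap. EPCAM, an epithelial adhesion molecule, had 45.1 and 27.3 TPM against 41.9 and 30.8 TPM. SNAI1 had the largest difference of the list in size, -0.86 (SE 0.38, limma adjusted p 0.935), opposite in direction to VIM. It had 3.70 and 6.63 TPM against 9.52 and 10.2 TPM, on at most 3 and 6 reads against 7 and 9. Without overlap 2 tested genes were higher (CLDN7 and CDH1) and 1 lower (SNAI1), against 16.1% and 13.2% of all genes tested. FN1 overlapped, at 0.631 and 2.07 against 0.214 and 2.36 TPM. From the fibroblast list, the collagen gene COL1A2 had 3.79 and 5.01 TPM with the SNHG26 guides and 7.47 and 7.72 TPM with the control guides, and COL1A1 had 4.16 and 2.98 against 3.21 and 4.21 TPM. PDGFRA, the other gene of that list tested and a growth factor receptor of mesenchymal cells, had 3.04 and 1.36 against 5.02 and 0 TPM. The arms overlapped for COL1A1 and PDGFRA but not for COL1A2, and none of the 3 passed.

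**Figure D4:**
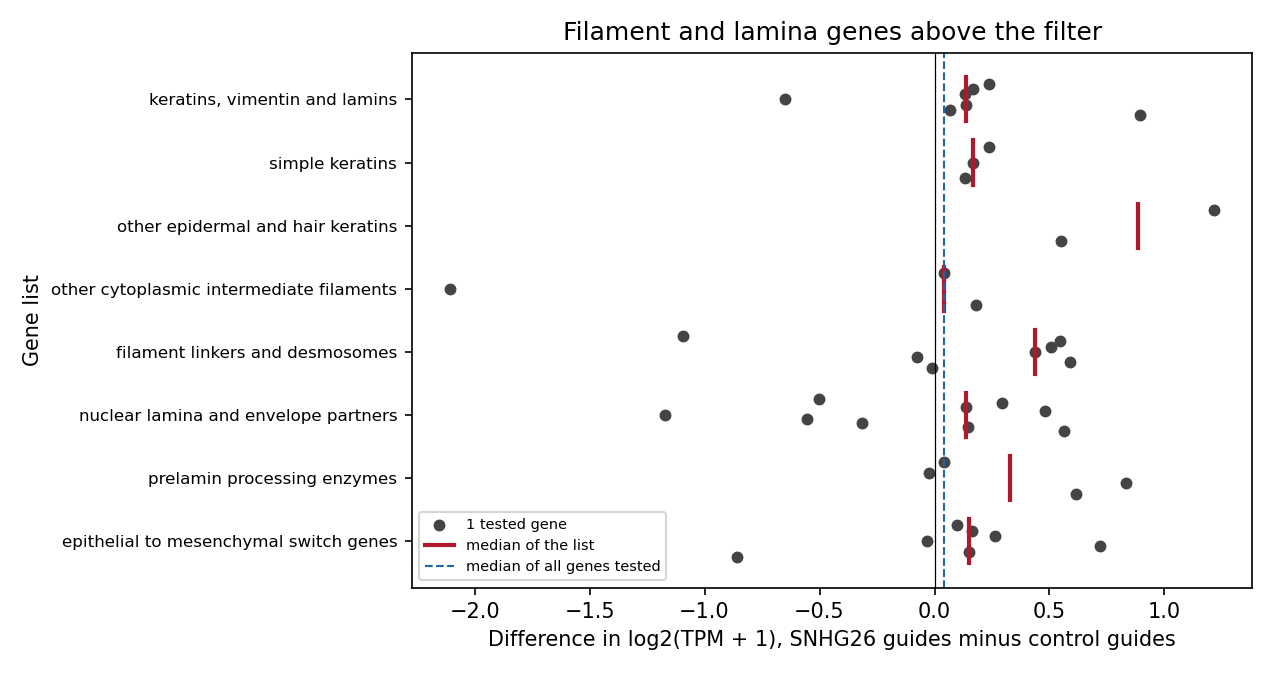
Difference in log2(TPM + 1) between the SNHG26 and control guides for each tested gene of the lists and for the 7 genes (grey points), with each list's median (red bar) and the median of all 8274 genes (dashed line). None of the genes shown passed the threshold, and the lowest point is NEFL at -2.11.

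Keratin genes have many processed pseudogenes, near-identical copies to which reads may be assigned in place of the parent. The table lists KRT18P11, at 5.09 TPM on 1 read in the day 3 SNHG26 library and at 0 in the other 3. KRT18P55, which carries a pseudogene's name but is typed as a long non-coding RNA, was listed at 0 in all 4.

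For each of the 7, the genes with the most similar profile were sought among those averaging 20 TPM or more, by the root mean square difference of centred log2(TPM + 1) over the 4 libraries. For the keratins many genes came close by this measure: 14.2% of 2031 genes lay within 0.1 of KRT19, 6.79% of KRT8 and 4.97% of KRT18. Fewer did for the others, with 26 of 2032 genes within 0.1 of LMNB1, 16 of LMNB2, 2 of LMNA and 1 of VIM. The closest were UCHL1 (0.0121) and KIF1A (0.0179) for KRT18, FIBP (0.017) and MTND1P8 (0.0212) for KRT19, and RHOA (0.0327) and NUDCD2 (0.0342) for KRT8. For the lamins they were S100A4 (0.0582) and MT-ATP8 (0.0966) for LMNA, HMGA1 (0.029) and CNN3 (0.0294) for LMNB1, and CSKMT (0.051) and HNRNPL (0.0591) for LMNB2. CHMP4A (0.0686) and PQBP1 (0.108) were closest to VIM. The VIM profile includes the short-span read of the day 3 SNHG26 library. That of LMNA includes the day 2 SNHG26 library, with at most 2 reads.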

How the data were processed

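Poly(A) RNA of 4 libraries was primed with oligo-dT, copied by strand switching and amplified by 14 cycles of PCR, per the labels' protocols, which describe no molecular identifiers. Intervals on reads therefore reflect counting alone. The deposited table, made by the authors, gives TPM and a span for each gene. The submitters' processing notes name minimap2 2.24-r1122 and GRCh38, and the counting tool and annotation are not given in the sources used here.

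The worth of 1 read was taken as the most frequent product of TPM and span in each library. With it, 2853 of 13840 genes with a value (20.6%) were whole reads on the full span within 0.0001 read, the 13 mitochondrial mRNAs among them. Reads of the 7 genes were then sought over GENCODE release 29 transcript spans, also with ends clipped to the listed gene, and were found for 3 of the 7 (KRT19, VIM, LMNB2). For the other 4 no solution was found, and the full span gives an upper bound if their values are built in the same way.

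Genes averaging 1 TPM or more were tested on log2(TPM + 1), a scale that shrinks the changes of low genes, with limma 3.58.1 in R 4.3.3 (eBayes with trend, Benjamini-Hochberg over 8274 genes, threshold 0.05). The code was tested on simulated data. Deviations of same-day libraries had a correlation of 0.0464 across genes, where the labels share only the day of doxycycline. The genes, lists and rules were chosen with earlier results of these data known. By rule, all 7 genes, the 2 tested genes of highest mean TPM in each list, keratin pseudogenes and the 2 nearest profiles per gene were named. KRT7, KRT10-AS1, PDGFRA, DPPA4, SNAI1, CDH1, FN1 and marker genes at 0 were named beside them. Alternatives were pseudocounts of 0.1 and 5, no filter, means of at least 5 and 50 TPM, quantile and median ratio scaling, eBayes without trend, a replicate block and leaving out each library.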

Additional observations from a re-analysis of the deposited data

How the results depend on the processing

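Of the 7 genes, 0 passed the limma threshold between the guide arms, between the days or in the change between days under any alternative run. Between the arms, limma adjusted p-values ran from 0.519 (LMNA) to 1 over the alternatives. KRT8, KRT18, KRT19, VIM and LMNA kept the sign of the guide difference under each. That of LMNB1 ran from -0.29 to 0.56 and that of LMNB2 from -0.25 to 0.39 as libraries were left out, where the lone library of an arm is assumed to vary like the others. KRT8 ran from 0.0102 to 0.25, VIM from 0.56 to 1.23 and LMNA from -1.14 to -0.16, and LMNA was -1.25 and -0.22 with pseudocounts of 0.1 and 5. Between the days, KRT18 ran from -0.44 to -0.0869, LMNB1 from -0.76 to -0.31, VIM from -0.87 to 0.49, LMNB2 from -0.44 to 0.0858 and KRT19 from -0.11 to 0.12, and KRT19 was -0.00623 with quantile normalization. The log2 ratio between arms ran from -0.42 to 0.21 for KRT8 to KRT18, from -0.23 to 0.0975 for KRT19 to KRT18 and from -0.92 to 0.61 for LMNB2 to LMNB1. The cause was not tested.

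The replicate block was the day for the guide comparison and the arm for the comparisons of days. With day as a replicate block, VIM kept 0.89 with a limma adjusted p of 0.908, and 0 genes passed between the arms (359 at an unadjusted p under 0.05); the block changed no call of the 7 genes. Over all genes, the 3 calls between days fell to 0 when the pseudocount was 0.1 or 5, without a filter, at 50 TPM or more, and with quantile normalization, eBayes without trend, the arm as replicate block or any library left out. The 8 calls for the change between days went to 14 at pseudocount 0.1 and 13 at 5 TPM or more, and to 0 at pseudocount 5, without a filter, at 50 TPM or more, with eBayes without trend or the arm as replicate block. That test needs all 4 libraries, so none was left out of it. With at least 5 TPM, LMNA and LMNB1 were not tested, and with at least 50 TPM only the keratins were. Depth limits LMNA (at most 2 to 17 reads a library), VIM (4 to 9) and LMNB1 (at most 13 to 26) most.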
